A study of Homo sapiens with 117 samples.

Results

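AsiSI is a restriction enzyme that cuts the palindrome GCGATCGC, and 1220 copies of this octamer lie on chromosomes 1 to 22 and X of the human genome build GRCh38. The sites described here are the 895 of these 1220 whose centre lay over 5 kb from the transcription start site (TSS) of every protein-coding gene in GENCODE release 44, and they are called distal AsiSI sites. The remaining 325 are called promoter AsiSI sites and serve as the comparison. The sites were chosen from the genome sequence and the annotation alone, with no measured value, and whether a given site was cut was not measured in the files analysed.

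CTCF ChIP-seq was performed in DIvA cells. This line descends from the osteosarcoma line U2OS and makes AsiSI joined to the hormone-binding part of the estrogen receptor, which enters the nucleus once 4-hydroxytamoxifen (4-OHT) is added. All cells analysed carried this fusion, and received IDH1 by lentivirus as either IDH1 WT or IDH1 R132H. Each genotype was studied without 4-OHT (−DSB) and after 4 h in 300 nM 4-OHT (+DSB). The same was done in IDH1 R132H cells that overexpressed the catalytic domain of TET1, called TET1 CD, or a mutant version of it, called TET1 dCD. The files are 24 lists of CTCF peaks. The +DSB lists number 4 for each genotype without a construct and 2 for each construct, and the −DSB lists number 3 for IDH1 WT (its replicates 2, 3 and 4), 4 for IDH1 R132H, 2 with TET1 CD and 3 with TET1 dCD. A peak list shows neither the IDH1 genotype nor the TET1 construct, so the labels could not be checked against a marker.

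CTCF is a zinc finger protein that binds an insulator motif, blocks cohesin as it extrudes chromatin loops and thereby helps to set the borders of topological domains. Methylation of CpG dinucleotides within its motif lowers its affinity for many sites. Mutant IDH1 makes D-2-hydroxyglutarate, which inhibits the TET dioxygenases that oxidise methylcytosine. AsiSI itself does not cut when the CpG dinucleotides of its octamer are methylated, and CpG islands, which are mostly unmethylated, lie chiefly at promoters, so a distal site usually lies in CpG-poor and often methylated DNA.

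The genomic sequences around the distal sites that carry the results are given on the plus strand of GRCh38, 5′ to 3′, with the AsiSI octamer in capitals. The first 7 are from the 8 sites whose strong CTCF summit lay nearest to the octamer in every list, and they show how different the sequence around such a site can be.
near SLC32A1, chr20:38731599-38731658: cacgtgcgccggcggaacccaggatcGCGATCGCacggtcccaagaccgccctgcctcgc
near HIF3A, chr19:46265500-46265559: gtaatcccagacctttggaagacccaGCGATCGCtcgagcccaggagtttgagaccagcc
near SRRM3, chr7:76178162-76178221: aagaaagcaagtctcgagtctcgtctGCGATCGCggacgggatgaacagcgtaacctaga
in PDLIM4, chr5:132272721-132272780: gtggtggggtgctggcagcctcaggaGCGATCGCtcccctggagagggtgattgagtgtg
in TPCN2, chr11:69101282-69101341: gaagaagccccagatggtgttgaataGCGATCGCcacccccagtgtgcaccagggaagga
in SREBF1, chr17:17812665-17812724: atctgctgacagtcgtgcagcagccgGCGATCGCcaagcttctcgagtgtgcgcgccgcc
near ONECUT1, chr15:53197053-53197112: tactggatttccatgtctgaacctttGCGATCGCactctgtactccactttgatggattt

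Another 3 sequences stand for sites without a strong summit. The chromosome 21 sequence recurs letter for letter at 4 CpG-rich distal sites that had no summit within 1 kb in any list. The sites in TAFA5 and PIK3CD had weak summits in every IDH1 WT +DSB list.
chromosome 21 repeat, chr21:8207043-8207102: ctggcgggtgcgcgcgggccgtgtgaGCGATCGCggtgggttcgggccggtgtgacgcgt
in TAFA5, chr22:48606683-48606742: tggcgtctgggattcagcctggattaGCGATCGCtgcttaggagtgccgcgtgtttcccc
in PIK3CD, chr1:9651781-9651840: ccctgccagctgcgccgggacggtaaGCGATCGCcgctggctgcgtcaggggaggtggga

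Most distal sites lay in introns or between genes. Of the 895, 399 (44.6%) were intronic to a protein-coding gene, 267 (29.8%) lay outside annotated genes, 120 (13.4%) were intronic to a long noncoding RNA, and there were 49 (5.47%) in coding exons, 32 (3.58%) in noncoding exons of protein-coding genes and 18 (2.01%) in exons of long noncoding RNAs. The median distance to the nearest protein-coding TSS was 45931 bp, 286 sites lay over 100 kb away and 59 over 500 kb away. The rule counts a single TSS per gene, and 175 of the 895 (19.6%) had the start of another annotated transcript of a protein-coding gene within 5 kb. Another AsiSI site lay within 50 kb of 88 distal sites, so their windows overlap.

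The distal sites were poorer in CpG than the promoter sites and richer than the genome. The 500 bp around a distal site held a median of 11 CpG dinucleotides, from 2 to 90, against 35 around promoter sites, 33 around all protein-coding TSS and 3 in windows of the whole genome. The octamer itself supplies 2 CpG at every AsiSI site, which the TSS and genome windows need not hold. A window of 500 bp with at least 50% G and C and an observed over expected CpG of at least 0.6 is called island-like here, and 124 of 895 distal sites (13.9%) lay in one, against 214 of 325 promoter sites (65.8%). The core motif of CTCF was searched on both strands as full matches to a single consensus, with no mismatch allowed. It was found within 1 kb of 6 distal sites (0.67%) and 9 promoter sites (2.77%), against 0.741% of all 2 kb windows. A match describes the letters of this consensus only, and a site without a match may still hold a motif that departs from it.

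Some properties of the lists bear on every result. The lists held 111558 to 503609 peaks from an estimated 22700000 to 84700000 reads, and 6 of 27 pairs of lists of a condition, which differed at shared summits by no more than counting noise, were each counted as 1 sample, which left 18 samples. The only pair of TET1 CD −DSB lists was kept as 2 samples, although its spread was 0.988 times that noise (chi-square test for more than noise, p = 0.829), because an only pair was joined just when it fell significantly below the noise. Run names inside the files gave another condition than the label for 9 of 24 lists: all 3 IDH1 WT −DSB lists were named as IDH1 R132H −DSB, all 4 IDH1 R132H −DSB lists as IDH1 WT −DSB, and TET1 dCD −DSB replicates 1 and 2 as TET1 CD +DSB. Groups below follow the labels, and since leaving out these lists would leave no untreated IDH1 WT or IDH1 R132H sample, the tests between conditions and the counts of separating sites are given with groups from the run names too. Other values by condition follow the labels alone. Nothing in the labels says that replicates came from separate cultures, so p-values measure the spread between these samples, which may be technical.

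With all deposited peaks counted, distal AsiSI sites had about as many CTCF summits nearby as the genome at large, and far fewer than promoter sites. A summit is the base where the reads of a peak pile highest, and the relative density is the number of summits per kb in a distance bin around the sites over that of the same list genome-wide, so that 1 means the list's own average. Over the 18 samples the distal relative density was 1.14 ± 0.27 (SD, n = 18) at 0 to 1 kb, 0.962 ± 0.163 at 1 to 5 kb, 0.984 ± 0.153 at 5 to 10 kb and 1.05 ± 0.15 at 10 to 50 kb. The share of distal sites with a summit was 16.6% ± 3.9 at 0 to 1 kb, from 9.33% to 23.6% between samples. At promoter sites the density at 0 to 1 kb was 3.94 ± 1.53 and the share of sites 50.6% ± 6.7. The log2 ratio of the distal to the promoter density was −1.73 ± 0.37 (SD, n = 18), lower at distal sites in 18 of 18 samples (two-sided permutation test of signs with 100000 resamples, p = 4e-05, adjusted p = 0.00048 over 12 tests).

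The density within 1 kb stood only slightly above that of the surroundings. The ratio of the distal density at 0 to 1 kb to that at 10 to 50 kb was 1.07 ± 0.11 and exceeded 1 in 13 of 18 samples. At promoter sites the same ratio was 3.49 ± 0.98 and exceeded 1 in 18 of 18 samples. Among the 20000 strongest peaks of each list the distal density at 0 to 1 kb was 1.58 ± 0.18 and the ratio 1.20 ± 0.12, above 1 in 18 of 18 samples. These strong summits lay within 1 kb of 2.17% ± 0.24 of the distal sites. A distal density close to the genome-wide one was therefore seen with all deposited peaks and not with the strongest alone.

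Local CpG content separated the distal sites. Within 1 kb of the 124 island-like sites the relative density was 2.69 ± 0.87 (SD, n = 18), against 0.889 ± 0.183 at the other 771. Their ratio was 2.98 ± 0.57 and exceeded 1 in 18 of 18 samples. A summit lay within 1 kb of 35.4% ± 7.6 of island-like and 13.6% ± 3.7 of other distal sites. The step lay at the CpG-rich end: the density was 0.780 ± 0.135 at the 271 sites with 2 to 8 CpG, 0.803 ± 0.272 at the 182 with 9 to 11, 0.910 ± 0.215 at the 239 with 12 to 18 and 2.18 ± 0.68 at the 203 with 19 to 90.

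**Figure D1:**
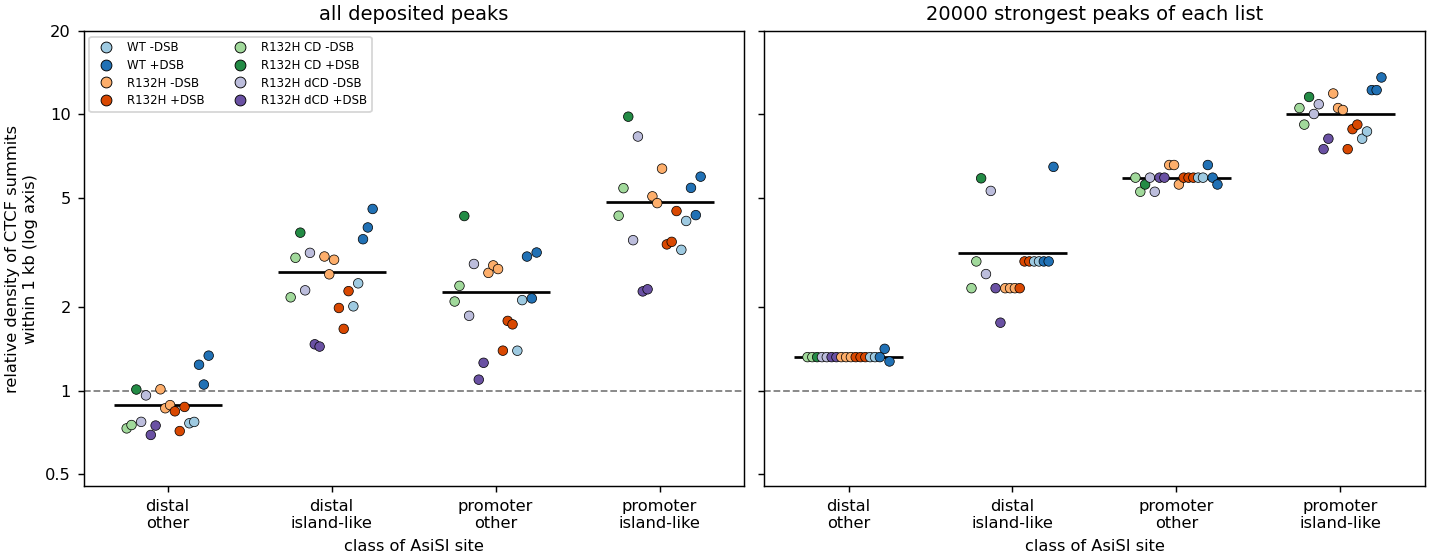
Relative density of CTCF summits within 1 kb (log axis, 1 = the list's genome-wide density) by class of AsiSI site, with 1 point for each of the 18 samples coloured by condition and a bar at the mean, for all deposited peaks (left) and the 20000 strongest of each list (right). With all peaks the means run from 0.889 at other distal sites and 2.69 at island-like distal sites to 2.27 and 4.80 at other and island-like promoter sites.

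Being island-like did not bring a distal site to the level of a promoter site. The island-like distal density was 0.583 ± 0.126 of the density at island-like promoter sites and lower in 18 of 18 samples. The other distal sites reached 0.422 ± 0.114 of the density at promoter sites that are not island-like, again lower in 18 of 18. Away from islands the distal sites were poorer in summits than their own surroundings, with a ratio of the 0 to 1 kb to the 10 to 50 kb density of 0.866 ± 0.074, below 1 in 17 of 18 samples. With the 20000 strongest peaks this ratio was 1.06 ± 0.05 and above 1 in 17 of 18, so its direction depended on the weak peaks.

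Position in the annotation also went with the density. Distal sites with another transcript start within 5 kb had a density of 1.64 ± 0.48, against 1.02 ± 0.26 at the 720 without, and were higher in 18 of 18 samples. The 32 sites in noncoding exons of protein-coding genes had 2.66 ± 1.27, while sites in introns of protein-coding genes had 1.03 ± 0.23 and sites outside genes 1.08 ± 0.20.

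Seen site by site, a CTCF summit near a distal AsiSI site was mostly occasional. Of the 895 sites, 326 (36.4%) had no summit within 1 kb in any of the 24 lists, 380 (42.5%) had one in 1 to 5 lists, 131 (14.6%) in 6 to 18, 26 (2.91%) in 19 to 23 and 32 (3.58%) in all 24. Of the 325 promoter sites, 41 (12.6%) had none and 57 (17.5%) had one in all 24. Within 10 kb, 228 distal sites had a summit in every list and 38 in none. Island-like distal sites were found at both ends, where 15 of 124 island-like distal sites had a summit within 1 kb in all lists and 35 had none in any, against 17 and 291 of the 771 others.

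**Figure D2:**
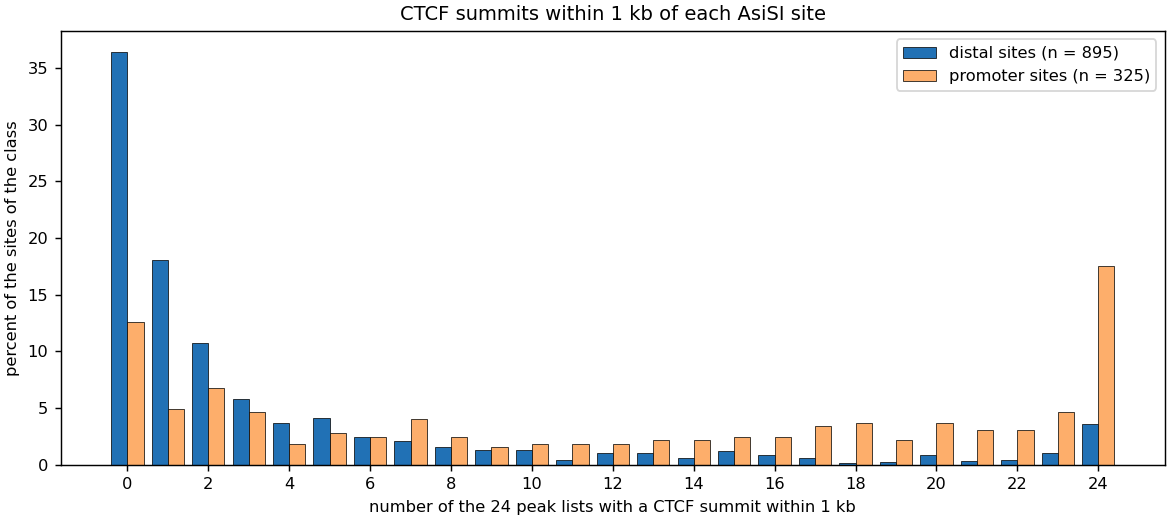
Percent of the distal (n = 895) and promoter (n = 325) AsiSI sites by the number of the 24 peak lists with a CTCF summit within 1 kb. The distal sites pile up at 0 lists (36.4%) and the promoter sites at 24 lists (17.5%).

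Strong and constant CTCF summits marked few distal sites. A summit of the 20000 strongest peaks lay within 1 kb in all lists at 15 of 895 sites (1.68%), in some lists at 14 (1.56%) and in none at 866 (96.8%). Over all 1220 AsiSI sites it did so in all lists at 42 (3.44%) and in some at 42 (3.44%). At the 325 promoter sites the counts were 27 (8.31%) and 28 (8.62%). The 15 held a median of 17 CpG in 500 bp, from 4 to 63, and 3 were island-like. A full match to the CTCF core consensus lay within 1 kb of 4, and 5 had another transcript start within 5 kb. Their summits lay at a median of 424.5 bp from the octamer.

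The nearest of these summits lay near SLC32A1, which encodes the vesicular transporter of GABA. The octamer at chr20:38731625-38731632 lies outside annotated genes, 7142 bp from the SLC32A1 TSS, with 20 CpG in 500 bp, and its summit lay 17 to 55 bp away in the 24 lists. Its fold, the summit pileup divided by the list's background after adding 1 to each, ran from 42.4 to 73.6 with a median of 60.2, and its rank by −log10 q was between 655 and 3516 in every list. Its fold by condition was 66.5 ± 7.5 (SD, n = 2) in IDH1 WT −DSB, 50.0 ± 6.6 (n = 3) in IDH1 WT +DSB, 52.6 ± 5.1 (n = 3) in IDH1 R132H −DSB and 64.9 ± 2.8 (n = 3) in IDH1 R132H +DSB. The run names exchange the −DSB groups, and by them 52.6 belongs to IDH1 WT and 66.5 to IDH1 R132H. The fold scales with the background of a list, which is not normalized between lists, so these values are not tested against each other.

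At 4 more sites the summit lay within 300 bp of the octamer in every list. Near HIF3A, which encodes a hypoxia-inducible factor subunit, the site at chr19:46265526-46265533 had 8 CpG in 500 bp and a summit 74 to 109 bp away, with a fold of 26.6 to 55.2. Near SRRM3, which encodes a neuronal splicing regulator, the site at chr7:76178188-76178195 had a summit 78 to 104 bp away with a fold of 38.2 to 81.4, and its median rank of 1609 was the best of the 8 sites with the nearest strong summits. In PDLIM4, which encodes an actin-associated PDZ and LIM protein, the site at chr5:132272747-132272754 lay in a noncoding exon with a core motif within 1 kb, and its summit lay 130 to 171 bp away. In TPCN2, which encodes an endolysosomal cation channel, the site at chr11:69101308-69101315 was intronic with 10 CpG, and its summit lay 228 to 265 bp away. Each of these summits kept its place within the ranges given across all 24 lists.

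The strong summits farther from the octamer were as constant in position. In SREBF1, which encodes a transcription factor of lipid synthesis, the site at chr17:17812691-17812698 was island-like, in a coding exon 24307 bp from the gene's TSS but 748 bp from another transcript's, and its summit lay 275 to 316 bp away. In MTHFD1L, which encodes a mitochondrial folate enzyme, the site had a summit 337 to 382 bp away. Near ONECUT1, which encodes a homeobox factor of liver and pancreas, the site at chr15:53197079-53197086 lay 406004 bp from the TSS and had a summit 408 to 432 bp away. The remaining 7 lay in RGS7, LINC00461, SPOCK1, SLC2A3 and CASC18 and nearest to WNT8A and KRTAP5-10, with median summit distances of 520.5 to 947 bp. SLC2A3, which encodes a neuronal glucose transporter, held the best placed of all 15, with a median rank of 328, and the octamer lies in one of its introns. The SPOCK1 site lay in a coding exon with 63 CpG, 99830 bp from the gene's TSS and 46 bp from another transcript's.

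**Figure D3:**
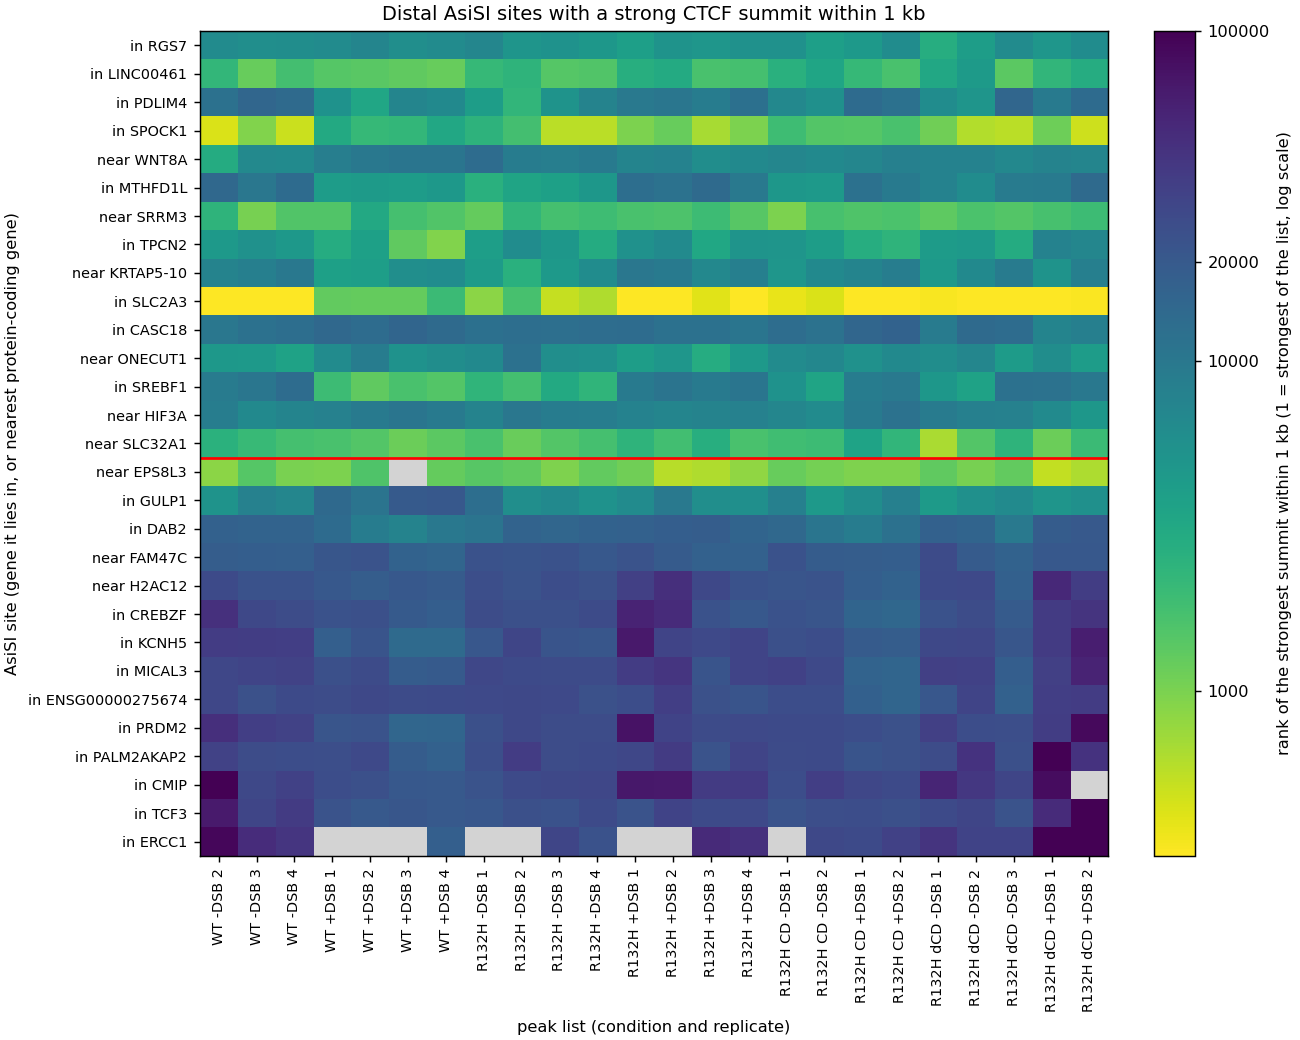
Rank of the strongest CTCF summit within 1 kb (colour, log scale, 1 = strongest peak of the list, with ranks beyond the scale in its end colours) at the 29 distal AsiSI sites (rows) with a summit of the 20000 strongest peaks in at least 1 of the 24 lists (columns), grey where no summit lay within 1 kb. The 15 sites above the red line were strong in all 24 lists, and of the 14 below it 10 were strong in 1 to 5 lists.

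The sites that were strong in only some lists were mostly island-like, unlike those strong in every list. Of these 14, 10 were island-like and 10 had another transcript start within 5 kb. At DAB2, which encodes an endocytic adaptor, the summit lay 3 to 41 bp from the octamer and was among the 20000 strongest in 23 lists. Near EPS8L3 and in GULP1 the summit was strong in 23 lists, and near FAM47C in 13. The EPS8L3 and GULP1 sites were not island-like, with 6 and 5 CpG in 500 bp, and so resembled most sites strong in every list. The other 10 were strong in 1 to 5 lists and were singled out after their values were seen: near H2AC12, and in CREBZF, KCNH5, MICAL3, ENSG00000275674, PRDM2, PALM2AKAP2, CMIP, TCF3 and ERCC1. None of the 10 had a full match to the CTCF core consensus within 1 kb. Their median CpG count was 46 in 500 bp, and 8 of them had a summit of some strength in all 24 lists.

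All 30 strong occurrences of these 10 sites fell in 3 conditions, with 16 in IDH1 WT +DSB, 10 in TET1 CD +DSB and 4 in TET1 dCD −DSB, where all 4 were in replicate 3. They also went with a property of the lists. The shortest peak, which follows the fragment length that the peak caller estimated, was 172 to 194 bp in 6 lists (IDH1 WT +DSB replicates 1, 3 and 4, TET1 CD +DSB replicates 1 and 2 and TET1 dCD −DSB replicate 3), and these held 28 of the 30. The other 18 lists, with a shortest peak of 118 to 150 bp, held 2, both in IDH1 WT +DSB replicate 2. This split was made after the values were seen and its part in the result was not tested. A missing summit need not be a missing signal. The ERCC1 site, in a gene for a nucleotide excision repair nuclease, had no summit within 1 kb in 8 lists. In these lists the nearest one lay 1028 to 1069 bp away in a peak that covered part of the window. At the EPS8L3 site in IDH1 WT +DSB replicate 3 the summit lay 2604 bp away in a peak of 6172 bp. At the CMIP site in TET1 dCD +DSB replicate 2, however, the nearest summit lay 16927 bp away and no peak covered the window.

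Whether DSB induction and IDH1 R132H change CTCF around AsiSI sites is the question of the experiment, and at the distal sites the samples of IDH1 WT +DSB stood highest. Their relative density at 0 to 1 kb was 1.56 in replicate 1, 1.45 in replicate 2 and 1.78 in replicates 3 and 4 counted as 1. In IDH1 WT −DSB it was 0.936 in replicate 2 and 1.00 in replicates 3 and 4. The means were 1.60 ± 0.17 (SD, n = 3) and 0.969 ± 0.047 (n = 2), and the groups did not overlap. In IDH1 R132H −DSB the values were 1.29, 1.11 and 1.18, and in IDH1 R132H +DSB they were 1.00, 0.846 and 1.07. Here the treated samples lay below all untreated ones, with means of 0.972 ± 0.114 (n = 3) and 1.19 ± 0.09 (n = 3).

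The difference with DSB was 0.626 in IDH1 WT, higher in 3 of 3 treated samples, and −0.221 in IDH1 R132H, lower in 3 of 3. Each had p = 0.1 in a two-sided exact permutation test, which is the smallest p that these sample numbers allow, and an adjusted p of 0.171 over the 12 tests. With groups from the run names the differences with DSB were 0.402 in IDH1 WT and 0.00314 in IDH1 R132H, and with the 20000 strongest peaks 0.176 and 0.0542, so the sign in IDH1 R132H turned under both. The change with DSB differed between the genotypes by −0.847 (IDH1 R132H minus IDH1 WT, exact permutation p = 0.005, the smallest possible, adjusted p = 0.02). Averaged over treatments, IDH1 R132H differed from IDH1 WT by −0.200 (exact permutation p = 0.22, adjusted p = 0.267), and with the run names by −0.424 (exact permutation p = 0.005, adjusted p = 0.02), which passed the threshold.

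The call for a different change with DSB was lost under several alternatives. With groups taken from the run names the difference was −0.399 (exact permutation p = 0.22, adjusted p = 0.377), and with the 20000 strongest peaks −0.122 (exact permutation p = 0.68, adjusted p = 0.764). It was −0.774 with the TSS of every transcript (exact permutation p = 0.015, adjusted p = 0.06) and −0.819 under the replicate block (exact permutation p = 0.0156, the smallest possible there, adjusted p = 0.0859). Among the strongest peaks the densities were 1.55 ± 0.00 (n = 2), 1.72 ± 0.24, 1.46 ± 0.00 and 1.52 ± 0.05 (n = 3 each) in the order of the groups above. Without any one of the 3 IDH1 R132H −DSB samples the adjusted p rose to 0.0667 (exact permutation p = 0.0167, the smallest possible there). No lower p was possible with fewer samples, so this loss does not speak to the size of the difference. Without IDH1 WT −DSB replicate 2 the adjusted p rose to 0.1 (exact permutation p = 0.025, the smallest possible being 0.0125). Over all samples left out in turn the differences were −0.922 to −0.754. Estimated depth and shortest peak moved with the groups: 22700000 to 35100000 reads and 124 to 128 bp in IDH1 WT −DSB, 70900000 to 84700000 reads and 143 to 191 bp in IDH1 WT +DSB, 44300000 to 63200000 reads and 144 to 150 bp in IDH1 R132H −DSB, and 23700000 to 34600000 reads and 121 to 127 bp in IDH1 R132H +DSB. By the labels they did not overlap between the genotypes at either treatment, nor between the treatments within either genotype. Neither genotype nor DSB can therefore be told apart from these list properties by the labels. With the run names, which exchange the untreated groups, the genotypes still did not overlap. Between the treatments, both properties then overlapped within IDH1 R132H, and the shortest peak did within IDH1 WT.

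**Figure D4:**
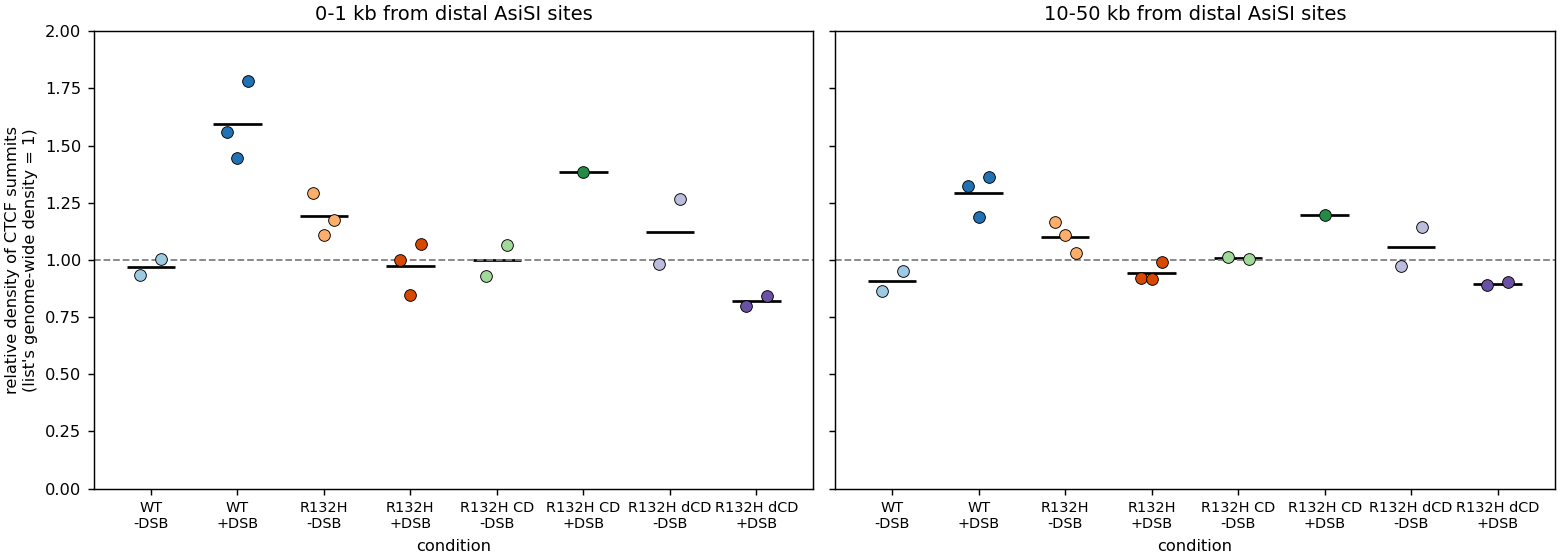
Relative density of CTCF summits at 0 to 1 kb (left) and 10 to 50 kb (right) from the 895 distal AsiSI sites in the 8 conditions, with 1 point per sample and a bar at the mean (dashed line, genome-wide density of the list). IDH1 WT +DSB has the highest mean at both distances, 1.60 and 1.29.

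The pattern was not limited to the kilobase around the octamer. At 10 to 50 kb the density was 0.863 and 0.950 in IDH1 WT −DSB and 1.32, 1.19 and 1.36 in IDH1 WT +DSB. It was 1.16, 1.11 and 1.03 in IDH1 R132H −DSB and 0.920, 0.915 and 0.993 in IDH1 R132H +DSB. The groups again did not overlap within a genotype, with differences of 0.384 and −0.160 (exact permutation p = 0.1 each, the smallest possible, adjusted p = 0.171). With the run names they were 0.189 and 0.0362, and with the 20000 strongest peaks 0.117 and −0.0678. The change with DSB differed between the genotypes by −0.544 (exact permutation p = 0.005, the smallest possible, adjusted p = 0.02), and by −0.153 (exact permutation p = 0.46, adjusted p = 0.69) with the run names. With the 20000 strongest peaks it was −0.185 (exact permutation p = 0.005, adjusted p = 0.03), still past the threshold, and under the replicate block −0.490 (adjusted p = 0.0859, exact permutation). Its adjusted p rose to 0.0667 without any one of the IDH1 R132H −DSB samples and to 0.075 without IDH1 WT −DSB replicate 2. Both came from the smallest possible exact permutation p, 0.0167 and 0.0125. The genotypes averaged over treatments differed by −0.0762 (exact permutation p = 0.46, adjusted p = 0.46), and with the run names by −0.272 (exact permutation p = 0.005, adjusted p = 0.02), which passed the threshold. With the strongest peaks this difference was −0.00746.

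Comparisons with the surroundings and with promoter sites were added after these values had been seen. The log2 ratio of the 0 to 1 kb to the 10 to 50 kb density changed with DSB by −0.28 more in IDH1 R132H than in IDH1 WT (exact permutation p = 0.065, adjusted p = 0.13 over the 2 added tests). The log2 ratio of the distal to the promoter density at 0 to 1 kb differed in the same way by 0.09 (exact permutation p = 0.74, adjusted p = 0.74). With the 20000 strongest peaks the latter was 0.66 (exact permutation p = 0.005, adjusted p = 0.01), and with the run names −0.46 (exact permutation p = 0.065). The former was 0.11 with the strongest peaks and −0.24 with the run names (exact permutation p = 0.465 and 0.12). With all peaks neither passed the threshold.

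**Figure D5:**
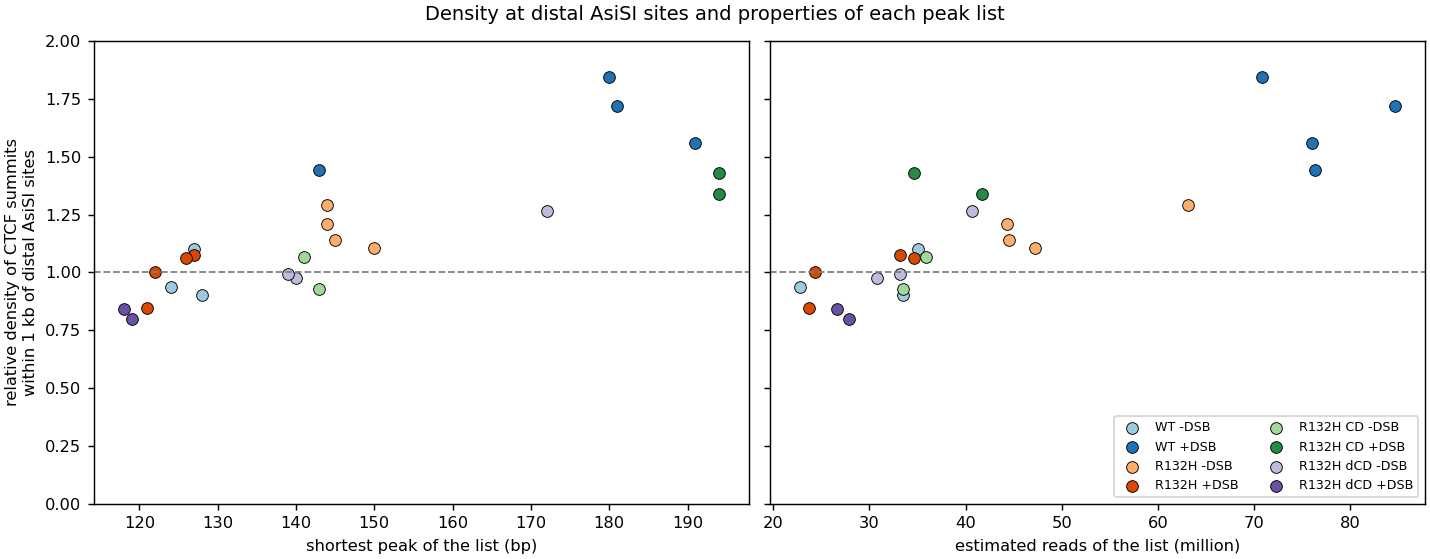
Relative density of CTCF summits within 1 kb of the distal AsiSI sites against the shortest peak (left, bp) and the estimated reads (right) of each of the 24 lists, coloured by condition. Lists with a shortest peak over 160 bp lie at 1.26 to 1.84 and the others at 0.799 to 1.45.

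Island-like and other distal sites were compared between the genotypes as well. The log2 ratio of their densities was 1.53 ± 0.18 (SD, n = 2) in IDH1 WT −DSB, 1.72 ± 0.19 (n = 3) in IDH1 WT +DSB, 1.65 ± 0.08 (n = 3) in IDH1 R132H −DSB and 1.29 ± 0.09 (n = 3) in IDH1 R132H +DSB. IDH1 R132H differed from IDH1 WT by −0.16 averaged over treatments (exact permutation p = 0.215, adjusted p = 0.267). The size of this difference depended on the setting, at −0.40 with the 20000 strongest peaks (exact permutation p = 0.03, adjusted p = 0.09), −0.36 with the TSS of every transcript (exact permutation p = 0.07, adjusted p = 0.171), −0.28 with the run names (exact permutation p = 0.025, adjusted p = 0.075) and −0.037 with the sites split at their median CpG number (exact permutation p = 0.775, adjusted p = 0.775). None of these passed the threshold after adjustment. The 3 IDH1 R132H +DSB samples lay below the 8 others without a construct. With TET1 dCD +DSB the log2 ratio was lower still, at 1.02 ± 0.10 (n = 2). The other conditions with a construct had means of 1.645 to 1.888. In density, island-like sites stood at 3.99 ± 0.51 in IDH1 WT +DSB and 1.99 ± 0.31 in IDH1 R132H +DSB, and the other distal sites at 1.21 ± 0.15 and 0.809 ± 0.084. Without DSB the order of the genotypes was reversed by the labels. The run names exchange these untreated groups, and by them the order was the same as after DSB. Island-like sites stood at 2.23 ± 0.30 in IDH1 WT −DSB and 2.89 ± 0.22 in IDH1 R132H −DSB, and the other distal sites at 0.766 ± 0.006 and 0.920 ± 0.080.

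TET1 CD and TET1 dCD did not differ by the test in IDH1 R132H cells. The density at 0 to 1 kb was 0.930 and 1.07 in TET1 CD −DSB, 1.39 in the single sample of TET1 CD +DSB, 0.983 and 1.26 in TET1 dCD −DSB and 0.799 and 0.843 in TET1 dCD +DSB. TET1 CD lay above TET1 dCD after DSB and between its samples or below them without. The difference averaged over treatments was 0.219 (exact permutation p = 0.444, adjusted p = 0.46, the smallest possible p being 0.0556), and without the TET1 CD +DSB sample it was −0.126. At 10 to 50 kb it was 0.127 (exact permutation p = 0.222, adjusted p = 0.267), and −0.0508 without that sample. With the run names, which move TET1 dCD −DSB replicates 1 and 2 to TET1 CD +DSB, the differences were 0.0484 and 0.0275 (exact permutation p = 0.778 and 0.722, adjusted p = 0.849 each). The share of sites with a summit went the other way from the density, at 9.33% in TET1 CD +DSB, whose lists held 111558 and 115419 peaks, and 20.9% ± 1.4 in TET1 dCD +DSB, whose lists held 448059 and 503609.

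Single distal sites rarely separated the groups. A site is called here when a summit lay within 1 kb in every list of a group and in no list of the other. After DSB, 15 of 895 distal sites (1.68%) were called for IDH1 WT and 1 (0.112%) for IDH1 R132H, where the shares over all 1220 AsiSI sites were 2.30% and 0.164%. Without DSB, 2 (0.223%) were called for IDH1 WT and 5 (0.559%) for IDH1 R132H, against 0.328% and 0.574% over all AsiSI sites. Within IDH1 WT, 18 (2.01%) were called for +DSB and 2 (0.223%) for −DSB, against 2.21% and 0.246% over all AsiSI sites. Within IDH1 R132H, 0 were called for +DSB and 2 (0.223%) for −DSB, against 0.164% and 0.492%. Over both treatments 0 distal sites separated the genotypes in either direction, as over all AsiSI sites (0.00%). The run names exchange the counts without DSB, giving 5 for IDH1 WT and 2 for IDH1 R132H. With them 6 (0.670%) were called for +DSB within IDH1 WT, against 0.902% over all AsiSI sites, and 0 for −DSB. Within IDH1 R132H 0 were then called in either direction, against 0.00% for +DSB and 0.0820% for −DSB, and over both treatments 2 (0.223%) were called for IDH1 WT and 0 for IDH1 R132H, against 0.164% and 0.0820%. All these distal shares lay near or below their backgrounds, of which the distal sites are themselves a part.

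The sites with the widest gaps, by the labels and without the TET1 constructs, had weak summits. In an intron of TAFA5, which encodes a secreted chemokine-like protein, the site at chr22:48606709-48606716 had a summit in 1 of 3 IDH1 WT −DSB lists, 4 of 4 IDH1 WT +DSB lists and none of 8 IDH1 R132H lists without a construct, with folds of 2.97 to 4.15. In IDH1 R132H cells with a construct it had one in 3 of 9 lists, with folds of 2.52 in TET1 CD −DSB, 4.06 in TET1 dCD −DSB and 3.70 in TET1 dCD +DSB. Near MRO, the site at chr18:50838676-50838683 had one in 1 of 3 and 4 of 4 IDH1 WT lists, in 1 of 8 IDH1 R132H lists and in 2 of 9 lists with a construct. In the long noncoding RNA ENSG00000290928, the site at chr17:30711720-30711727 had one in 1 of 3 and 3 of 4 IDH1 WT lists, in none of 8 IDH1 R132H lists and in 1 of 9 lists with a construct. Between treatments, the site at chr1:9651807-9651814 in an intron of PIK3CD, the gene of a leukocyte PI3-kinase subunit, had a summit in 4 of 4 IDH1 WT +DSB and 1 of 4 IDH1 R132H +DSB lists and in no −DSB list without a construct, but in 1 TET1 CD −DSB list. The site at chr7:78429-78436 in the long noncoding RNA ENSG00000232325 showed the same counts without a construct, and had a summit in 1 TET1 dCD −DSB list. In an intron of YAE1, the site at chr7:39586049-39586056 had a summit in all 7 −DSB lists without a construct and in 4 of 8 such +DSB lists, but with a construct in 1 of 5 −DSB and 1 of 4 +DSB lists. Over all these lists the summit lay 16 to 987 bp from the octamer, so different summits were counted. The best rank of any summit at these 6 sites was 59463, in TET1 dCD −DSB replicate 3 at YAE1, and the sites were picked for these gaps, so no test is given.

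Some CpG-rich distal sites held no summit at all. The 4 with the most CpG lay on the short arm of chromosome 21, at chr21:8207069-8207076, chr21:8251278-8251285, chr21:8390116-8390123 and chr21:8434302-8434309, each with 74 CpG in 500 bp. They share the 60 bp printed above, over 2 Mb from the nearest protein-coding TSS. No list had a summit within 1 kb of any of them, and all 24 had one within 10 kb. Reads of identical sequence cannot be placed uniquely, and whether such reads were kept was not tested. In all, 39 distal sites (4.36%) had 60 bp found at another AsiSI site.

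The 2 sites nearest to the 5 kb limit on each side had a summit within 1 kb in few lists. So few sites do not describe the density around this limit. Just outside it, the sites at chr9:130048265-130048272 near FNBP1 (5079 bp from the TSS) and near C16orf96 (5117 bp) had a summit within 1 kb in 3 and 1 of 24 lists. Just within it, the promoter sites at chr10:91928713-91928720 in BTAF1 (4946 bp) and chr6:73315195-73315202 near KHDC1 (4833 bp) had one in 2 lists each.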

How the data were processed

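CTCF ChIP-seq lists of 24 DIvA cell samples in 8 conditions were analysed from a series of 117 samples, and the IDH1 WT −DSB replicate 1 list and the 4C-seq samples were not analysed here. The authors trimmed reads with cutadapt 1.18 and mapped them to GRCh38 with Bowtie2 2.3.4.1, by the submitters' processing notes (the paper names another Bowtie2 version), removed reads of low quality and ran MACS2 separately for every sample against an input control. Versions of MACS2 are given inconsistently and none is stated here. The deposited positions give the start, end and summit of each peak. The score column that the authors deposited was not used. The deposited fold is a ratio of summit reads plus 1 to a single background plus 1 per list, as the values show, and the deposited −log10 p and −log10 q follow from the same reads. None is normalized between lists. They served to rank and filter peaks within a list and to estimate reads, under an assumed genome size, the shortest peak giving the fragment length. No peak ended beyond the reference chromosomes.

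AsiSI octamers, CpG content and motif matches were read from GRCh38 and gene models from GENCODE release 44. Summits were counted in bins of 0 to 1, 1 to 5, 5 to 10 and 10 to 50 kb around the site centres and divided by non-N bases and by the list's density on chromosomes 1 to 22 and X. Lists of 1 condition were compared at summits within 60 bp of each other that had a mean of at least 20 and under 50 reads. A pair was counted as 1 sample, by the mean of its lists, when it differed by no more than counting noise (chi-square test) while another pair of the condition differed, or, for an only pair, when it differed by less than counting noise. Versions of this rule were weighed after the ratios were seen and before any test between groups.

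Differences between groups were tested by exact permutation within treatments, two-sided, with Benjamini-Hochberg adjustment over 12 tests (threshold 0.05), and distal with promoter sites by a permutation test with 100000 resamples. The tests were first chosen for peaks with a q-value under 0.05, but the lists reach weaker peaks and all were kept. The counting and the tests were checked on simulated data. Alternatives were another peak threshold, peak overlap, TSS set or limit, every list as a sample, groups from run names, the replicate block and leaving out each sample. The sites, classes and lists were chosen with earlier results of these data known. Named sites are up to 8 strong in every list by summit distance, up to 4 island-like sites with no summit, up to 3 each with the widest gap between genotypes and between treatments, and the 2 on either side of the 5 kb limit. Others were named after their values were seen. Some sequences at named sites are not reported here. Python 3.11.15, numpy 2.4.6, pandas 2.3.3, scipy 1.17.1 and matplotlib 3.10.9 were used.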

Additional observations from a re-analysis of the deposited data

Results flagged for a closer look

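The change in the relative density of CTCF summits with DSB at distal AsiSI sites differed between the genotypes by a test of the difference itself, by −0.847 at 0 to 1 kb and by −0.544 at 10 to 50 kb (IDH1 R132H minus IDH1 WT, exact permutation p = 0.005 each, adjusted p = 0.02). With groups from the run names the differences were −0.399 and −0.153 (exact permutation, adjusted p = 0.377 and 0.69), and with the 20000 strongest peaks −0.122 and −0.185 (exact permutation, adjusted p = 0.764 and 0.03). Without any one of the 3 IDH1 R132H −DSB samples the adjusted p of both was 0.0667 (exact permutation p = 0.0167, the smallest possible there). The part of depth and fragment length in these differences was not tested.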

How the results depend on the processing

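Of 194 values under alternatives of the 12 tests, 169 kept direction and side of the threshold. Many of them could not change side. For DSB within a genotype and TET1 CD against dCD the smallest possible p was over 0.05, except with every list as its own sample. The count is therefore no measure of how stable the calls are. With every list as its own sample the difference with DSB was 0.662 and 0.388 in IDH1 WT and −0.192 and −0.129 in IDH1 R132H (0 to 1 and 10 to 50 kb, each with exact permutation p = 0.0286, adjusted p = 0.049). With the 20000 strongest peaks the difference with DSB in IDH1 R132H at 0 to 1 kb was 0.0542 and the genotype by DSB difference −0.122. With the TSS of every transcript the latter was −0.774 (exact permutation p = 0.015, adjusted p = 0.06). With groups from the run names the genotypes differed by −0.424 and −0.272 (exact permutation p = 0.005 and adjusted p = 0.02 each), the difference with DSB in IDH1 R132H was 0.00314 and 0.0362, and the genotype by DSB difference −0.399 and −0.153. Under the replicate block the genotype by DSB difference was −0.819 and −0.490 (exact p = 0.0156, the smallest possible, adjusted p = 0.0859). Same-numbered samples did not deviate together (0 of 18 pairs over 0.1, r from −0.267 to 0.0993), so the numbers were not read as pairs. Leaving out 1 sample at a time gave −0.922 to −0.754 and −0.596 to −0.500 for genotype by DSB and −0.126 to 0.290 and −0.0508 to 0.169 for TET1 CD against dCD. Of the added comparisons, the log2 ratio to the surroundings was 0.11 with the strongest peaks and the log2 ratio to promoter sites −0.46 with the run names. The causes of these changes were not tested. Depth is an estimate from the peak lists, and its effect on the density was not tested.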
